A study of Mus musculus with 103 samples.

Results

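Single muscle stem cells of 1 young mouse were split by whether the messenger RNA of Cdkn1a was found in the well, so the groups were chosen by its own TPM. Of the 64 wells labelled 3mo, 54 held at least 1000 Ensembl genes at 1 TPM or more (TPM, transcript abundances scaled to 1 total in every library) and were kept. Cdkn1a stood at 1 TPM or more in 31 of these 54 wells and under 1 TPM in the other 23. The 31 wells with Cdkn1a and the 23 wells without it are the groups compared here. The series holds 103 samples in all, with 31 further wells of a 24mo mouse and 8 bulk libraries. All are muscle stem cells of untreated C57BL/6 mice, which carried no transgene or deletion that the labels name, and age is the only difference between groups that the labels give. Bulk libraries came from 3 mice of 3mo, 2 of 12 to 13mo and 3 of 24mo, of which the youngest carry 3mo in the age label and title but 2mo in the description, whereas the wells of each age came from 1 mouse. The labels give neither a sort gate nor the time of RNA collection relative to culture in a medium with fibroblast growth factor 2, and the design text speaks of myoblasts. Since all 54 wells came from 1 mouse, cells are not replicates of a condition: no test was made between them, and spreads and intervals below cover differences between wells of this mouse only.

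Cdkn1a encodes p21, a protein that binds cyclin and cyclin-dependent kinase (CDK) complexes and the replication clamp PCNA and so holds cells out of DNA replication. Its transcription is raised by the tumour suppressor p53 after DNA damage, and by other inputs such as TGF-beta signalling and differentiation. In skeletal muscle p21 is known for its part in the withdrawal of myoblasts from the cell cycle and in the balance between quiescence and activation of stem cells.

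The gene lies on the plus strand of chromosome 17, from 29090976 to 29100727 in the GENCODE vM21 annotation, whose assembly is the mm10 build of the submitters' processing notes, and overlaps the noncoding entry AC167363.2. Both of its promoter windows are shown because Cdkn1a chose the groups and its best known regulator has a recognisable motif. Both come from RefSeq (GRCm38.p6, the mm10 assembly), run 5′ to 3′ and reach from 250 bases before a transcription start to 50 bases after it. In the upstream window, chr17:29090729-29091028, capitals mark matches to the p53 decamer, the unit that is repeated in a p53 response element. In the downstream window, chr17:29093519-29093818, capitals mark GC boxes (GGGCGG), the motif of Sp1.
Cdkn1a upstream start: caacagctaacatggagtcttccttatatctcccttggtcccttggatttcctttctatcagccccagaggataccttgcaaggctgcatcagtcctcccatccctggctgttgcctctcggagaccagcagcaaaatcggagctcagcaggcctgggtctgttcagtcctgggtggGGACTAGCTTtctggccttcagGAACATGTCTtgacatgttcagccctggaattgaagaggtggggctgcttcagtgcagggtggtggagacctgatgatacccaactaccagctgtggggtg
Cdkn1a downstream start: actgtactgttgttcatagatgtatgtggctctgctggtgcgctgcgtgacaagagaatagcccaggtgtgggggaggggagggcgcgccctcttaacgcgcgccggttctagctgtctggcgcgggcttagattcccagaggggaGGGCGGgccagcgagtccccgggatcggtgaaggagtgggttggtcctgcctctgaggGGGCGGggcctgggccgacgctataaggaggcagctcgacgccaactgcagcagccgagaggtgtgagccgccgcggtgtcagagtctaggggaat
The decamer matched at -73 to -64 and at -51 to -42 from the upstream start, each on both strands, and nowhere in the downstream window. GC boxes matched on the plus strand at -104 to -99 and at -46 to -41 from the downstream start. Over 27025 RefSeq promoter windows of the same length, 8.37% held the decamer, 35.9% a GC box and 14.2% the TATA box TATAAA on either strand, and no overlap between motifs was found in the windows shown. The deposited gene-level values do not tell which start was used in a well.

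Cdkn1a was found in 57.4% of the kept wells (exact Clopper-Pearson 95% interval 43.2 to 70.8). Because these values chose the groups, they are a description. In the 31 wells with Cdkn1a its level was 1.01 TPM at the lowest, 85.1 TPM at the median and 781 TPM at the highest, against exactly 0 in each of the 23 wells without it. No well lay between 0 and the threshold of 1 TPM: the lowest values above it were 1.01, 1.15 and 1.21 TPM. The wells with Cdkn1a fell into 9 wells between 1 and 10 TPM, at most 6.73 TPM, and 22 wells at 10 TPM or more, of which the lowest held 14.97 TPM. Of these 22, 13 were at 100 TPM or more. Absence of a transcript from a single well is common for genes of this level. Among 295 genes whose mean TPM lay between 20% below and 25% above that of Cdkn1a (68.9 TPM), the median gene was found in 48.1% of wells and 197 were found in fewer wells than Cdkn1a. A well without Cdkn1a is therefore a well in which the transcript was not detected, and depth is unknown because TPM keep no read counts.

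**Figure D1:**
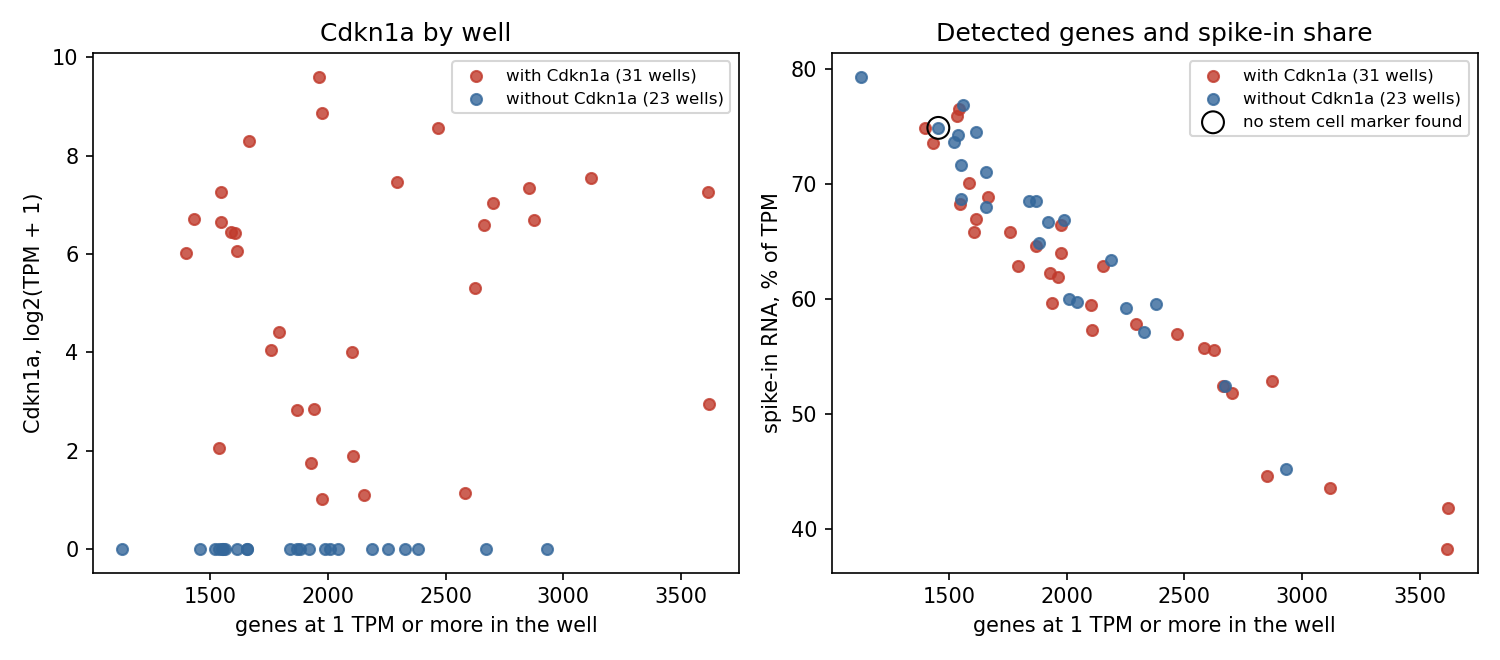
Kept wells of the 3mo mouse, with Cdkn1a (red, 31 wells) and without it (blue, 23 wells), each dot 1 well. The left panel plots Cdkn1a in log2(TPM + 1), and the right panel the share of TPM taken by spike-in RNA in percent, both against the number of genes at 1 TPM or more. Both kinds of well overlap between 1397 and 2931 detected genes, the ring marks the well with 0 of 8 stem cell markers, and the spike-in share is lower where more genes were found.

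The groups were not equal in quality. Wells with Cdkn1a held a median of 1975 detected genes (1397 to 3621), against 1868 (1127 to 2931) in wells without it. Spike-in RNA took a median of 62.3% of TPM (38.2 to 76.5) in wells with Cdkn1a and 68.0% (45.2 to 79.3) in wells without it. The share of gene TPM on mitochondrially encoded genes was 7.37% at the median in wells with Cdkn1a and 8.64% in wells without it. The ratio of gene to spike-in TPM was 0.601 in wells with Cdkn1a, against 0.462 in wells without it. Wells with and without Cdkn1a were also unevenly spread over the index numbers in the well titles: of the 8 numbers of the first index, 1 was carried by 7 wells with and 1 well without Cdkn1a, and another by 1 well with and 5 wells without it. Of the second index, 1 number was carried by 4 wells with and 0 without, and another by 6 with and 1 without. The number of detected genes was therefore a term of every fit unless said otherwise, and the part of the other measures in the results was not tested beyond the fits named below. Index numbers named in a fit below are those of the first index only, and the second index was in no fit. None of the 10 young wells left out, with 7 to 852 detected genes, held Cdkn1a.

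Markers of muscle stem cells were found in both groups. A median of 5 of 8 markers was present per well in each group (3 to 8 in wells with Cdkn1a and 0 to 7 in wells without it). Pax7, the transcription factor that defines these cells in adult muscle, was found in 23 of 31 wells with Cdkn1a (74.2%, 55.4 to 88.1) and in 15 of 23 without it (65.2%, 42.7 to 83.6). Myf5, a myogenic regulatory factor, was found in 30 of 31 wells with and 20 of 23 without Cdkn1a, the heparan sulfate proteoglycan Sdc4 in 31 of 31 wells with and 21 of 23 without Cdkn1a, and Calcr, the calcitonin receptor that keeps satellite cells quiescent, in 15 of 31 wells with and 9 of 23 without Cdkn1a. One well without Cdkn1a, with 1455 detected genes, held 0 of the 8 markers and 7222 TPM summed over the smooth muscle and pericyte list, against at most 2595 TPM in any other kept well. Its Tagln, Myl9 and Acta2 stood at 3514, 2396 and 1155 TPM. Values without this well are given where it moves a result.

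Across the 5334 genes found in at least 10% of the kept wells, few differed by a large step between wells with and without Cdkn1a. A gene was counted as past the fold when its mean log2(TPM + 1), adjusted for detected genes by least squares, differed by 2 log2 units or more, a rule of size and not a test. This held for 39 genes (0.731%), of which 19 were higher in wells with Cdkn1a (0.356%) and 20 lower (0.375%). Without the term for detected genes the count was 66 genes, 57 higher and 9 lower, and the median over all genes moved to 0.22 against 0.04 with the term. Without the well lacking stem cell markers, 20 genes were higher and 18 lower. At 1 log2 unit, 364 genes were higher (6.82%) and 279 lower (5.23%).

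These differences lay in how often a transcript was found and, for most genes, also in its level where found. Since the 39 genes were chosen by their difference between these same groups, the direction of both measures was largely set by that choice. Shares and medians here are not adjusted for detected genes. All 19 higher genes were found in a larger share of wells with Cdkn1a than without it, and 18 of them also had a larger median TPM over the wells that held them. All 20 lower genes were found in a smaller share of wells with Cdkn1a, and in 14 the median over wells holding the gene was smaller too. The ranges of the groups overlapped for every one of the 39 genes, and the lowest value was 0 in both groups for 17 of the 19 higher and all 20 lower genes.

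Of the higher genes, Ackr3, an atypical receptor that takes up the chemokine CXCL12, had lowest, median and highest values of 0, 38.01 and 639 TPM in wells with Cdkn1a, against 0, 0 and 542 TPM in wells without it. The adjusted difference was 2.86 log2 units, with mean log2(TPM + 1) of 4.65 ± 3.51 (SD, 31 wells) with Cdkn1a and 1.95 ± 3.16 (SD, 23 wells) without. The transcript was present in 22 of 31 wells with and 8 of 23 without Cdkn1a, and the ranges of the groups overlapped throughout. Tnfrsf12a, which encodes Fn14, the receptor of the cytokine TWEAK, was 0, 331 and 3202 TPM in wells with Cdkn1a, against 0, 0 and 1043 TPM in wells without it, with an adjusted difference of 2.59. Found in 26 of 31 wells with Cdkn1a and 11 of 23 without, it was absent from the larger part of the second group. Sgk1, a kinase induced by serum and glucocorticoids, was 0, 211 and 1301 TPM in wells with Cdkn1a and 0, 2.74 and 3187 TPM in wells without it, so that the highest single value belonged to a well without Cdkn1a (difference 2.33). Errfi1, a feedback inhibitor of the EGF receptor, was found in 26 of 31 wells at a median of 78.3 TPM with Cdkn1a, against 14 of 23 wells and 21.5 TPM without it (difference 2.44).

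Pim1, a survival kinase induced by STAT signalling, was 0, 69.6 and 455 TPM in wells with Cdkn1a, against 0, 11.9 and 368 TPM in wells without it. It was present in 29 of 31 wells with and 15 of 23 without Cdkn1a. Its adjusted difference of 2.21 was 1.40 once the numbers of the first index were added to the fit. Nfkb1, the precursor of the NF-kappaB subunit p50, was found in 13 of 31 wells with Cdkn1a (41.9%, 24.6 to 60.9) and 4 of 23 without it (17.4%, 4.95 to 38.8). Its median was 0 in both groups while its highest value was 384 TPM with Cdkn1a and 45.3 TPM without, for a difference of 2.04.

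Hk2, hexokinase 2, the enzyme that commits glucose to glycolysis, was 0, 7.18 and 3090 TPM in wells with Cdkn1a and 0, 0 and 2745 TPM in wells without it. Found in 20 of 31 wells with Cdkn1a and 6 of 23 without, its adjusted difference was 2.75. Of the 15 kept genes of the glycolysis list no other passed the fold (0.731% over all genes). Mt1, a metallothionein that binds zinc and copper, was the most abundant of the 19, at 0, 1785 and 9854 TPM with Cdkn1a and 0, 771 and 7947 TPM without. Its transcript was present in 28 of 31 wells with and 15 of 23 without Cdkn1a (difference 2.49), while the median over wells that held it was 1947 TPM with Cdkn1a and 1883 TPM without.

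Cdc42, a small GTPase that sets cell polarity, was 0, 134 and 737 TPM in wells with Cdkn1a, against 0, 0 and 438 TPM in wells without it (24 of 31 wells with and 10 of 23 without Cdkn1a, difference 2.42). Tubb6, a beta-tubulin, was 0, 54.8 and 1169 TPM with Cdkn1a and 0, 0 and 539 TPM without (22 wells with and 9 without, difference 2.34). Capza2, a subunit of the protein that caps actin filaments, was found in 22 wells with and 7 without, with a difference of 2.31 (1.69 with the index numbers). Akap2, an anchor of protein kinase A, was found in 25 wells with and 10 without and never passed 46.6 TPM without Cdkn1a, against a highest value of 462 TPM with it (difference 2.54). Chp1, a calcium-binding partner of sodium-proton exchangers, was found in 22 wells with and 6 without (difference 2.63).

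Asb5, an adaptor of the cullin ubiquitin ligase family, had the largest positive difference of all, 2.88. It was 0, 286 and 2907 TPM in wells with Cdkn1a and 0, 0 and 882 TPM in wells without it (22 wells with and 10 without). Psmd11, a lid subunit of the proteasome, was found in 16 wells with and 6 without (difference 2.14, or 1.24 with the index numbers). The remaining 4 of the 19 are processed pseudogenes, Oaz1-ps (2.45), Gm13092 (2.21), Actg-ps1 (2.15, or 1.94 with the index numbers) and Gm12715 (2.00, or 1.84 with them), whose reads cannot be told apart with certainty from those of their parent genes. Asb5 overlaps Spcs3 and Akap2 overlaps Pakap, and whether reads were counted by strand is not stated, so their values may hold reads of the neighbour.

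**Figure D2:**
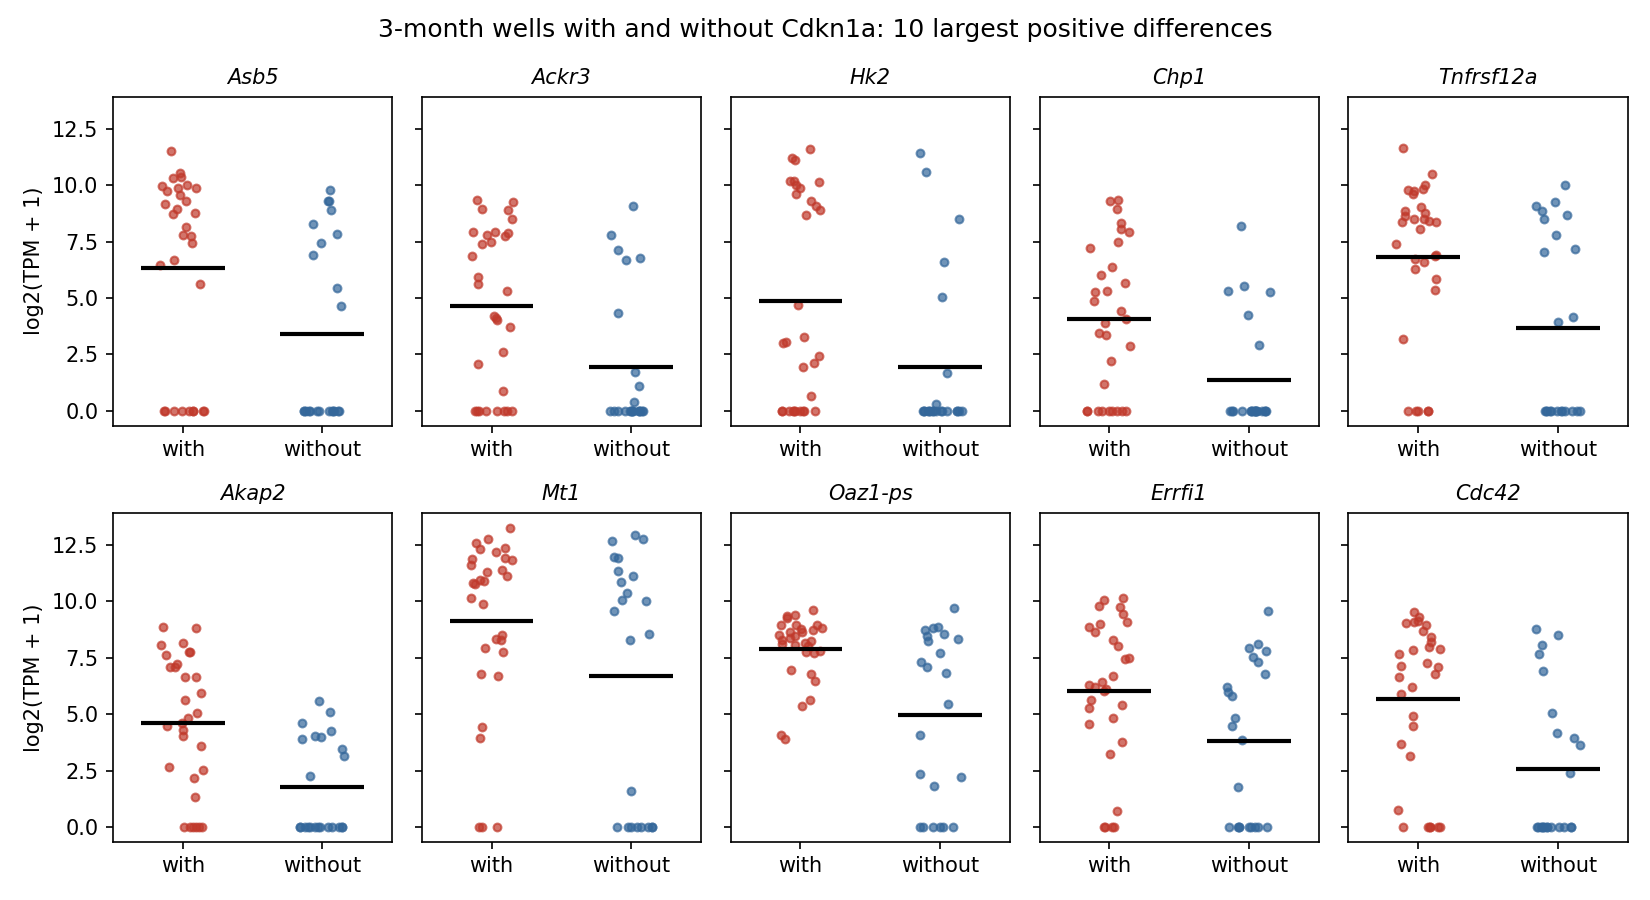
The 10 largest positive differences among genes found in at least 25% of kept wells. Each dot is 1 well, in log2(TPM + 1), with wells with Cdkn1a on the left (red, 31) and wells without it on the right (blue, 23), and black bars are group means. Wells at 0 make up a larger share on the right in every panel, and the ranges overlap in all 10.

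On the lower side, Cyr61 stood first. Cyr61 (CCN1) is a secreted matricellular protein and a common target of YAP signalling. Its values were 0, 0 and 827 TPM in wells with Cdkn1a, against 0, 64.5 and 1234 TPM in wells without it. The transcript was found in 11 of 31 wells with Cdkn1a (35.5%, 19.2 to 54.6) and 17 of 23 without it (73.9%, 51.6 to 89.8). Its adjusted difference, -3.72, was the largest of either sign, with mean log2(TPM + 1) of 2.03 ± 3.12 (SD, 31 wells) with Cdkn1a and 5.34 ± 3.66 (SD, 23 wells) without.

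Zfp36 and Fos were the 2 of 29 kept immediate early genes past the fold, against 0.731% over all genes. Zfp36 encodes tristetraprolin, which binds AU-rich mRNAs and speeds their decay. It was 0, 66.6 and 2058 TPM in wells with Cdkn1a and 0, 176 and 2106 TPM in wells without it (18 of 31 wells with and 19 of 23 without Cdkn1a, difference -2.77). Fos, a subunit of the transcription factor AP-1, was found in about the same share of wells, 80.6% with Cdkn1a and 82.6% without. Its median was 557 TPM with Cdkn1a and 1036 TPM without, and over the wells that held it 701.15 TPM with and 2519 TPM without (difference -2.18, or -1.56 with the index numbers).

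Ccnd3, cyclin D3, the partner of CDK4 and CDK6 that drives the step p21 restrains, was 0, 0 and 471 TPM in wells with Cdkn1a and 0, 37.98 and 570 TPM in wells without it. It was found in 9 of 31 wells with and 13 of 23 without Cdkn1a (difference -2.75). Ccnd3 overlaps Bysl, so the same reservation about neighbours holds. Psmb6, a catalytic subunit of the 20S proteasome, was 0, 1.59 and 565 TPM with Cdkn1a and 0, 68.5 and 519 TPM without (16 wells with and 18 without, difference -3.07). Both proteasome genes past the fold, of 26 kept (0.731% over all genes), thus lay on opposite sides, Psmd11 higher and Psmb6 lower.

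Rdx, radixin, which links actin to the plasma membrane, was found in 5 of 31 wells with Cdkn1a (16.1%, 5.45 to 33.7) and 13 of 23 without it (56.5%, 34.5 to 76.8), and its highest value was 70.2 TPM with Cdkn1a and 324 TPM without (difference -2.72). Cst3, the secreted protease inhibitor cystatin C, was 0, 7.35 and 621 TPM with Cdkn1a and 0, 34.9 and 1386 TPM without (17 wells with and 19 without, difference -2.52). Med28, a subunit of the Mediator complex, was found in 2 wells with and 9 without (difference -2.10). Med28 reached the filter on the share of wells through the wells without Cdkn1a, so its direction was largely set by the filter. Dpysl2, a microtubule-binding protein, was found in 21 wells with and 21 without (difference -2.04, or -1.86 with the index numbers). Mrps14, a protein of the mitochondrial ribosome, was found in 8 wells with and 11 without (difference -2.61), and Tmem258, a subunit of the oligosaccharyltransferase complex that overlaps Fen1, in 8 wells with and 12 without (difference -2.31). Spats2l (-2.49), Wbp5 (-2.16), Tmem176b (-2.23, overlapping Tmem176a) and D8Ertd738e (-2.0, or -0.88 with the index numbers) completed the coding genes together with Tagln.

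Tagln, an actin-binding protein of smooth muscle whose gene overlaps Pcsk7, had a difference of -2.22 that was -1.85 without the single well lacking stem cell markers, in which it reached 3514 TPM. In the main fit Tagln was therefore past the fold only with that well included, as were Wbp5 (-1.94 without it) and D8Ertd738e (-1.84). Among wells with at least 2000 detected genes, which also leave that well out, Tagln differed by -3.41 and so was past the fold. The last 4 were the pseudogenes Gm28661 (-2.26) and Gm4459 (-2.10) and the antisense transcripts Gt(ROSA)26Sor (-2.11, or -1.99 with the index numbers) and Gm20659 (-2.11, or -1.79 with them), whose reads cannot be separated from those of their copies or partners here. Gt(ROSA)26Sor also reached the filter on the share of wells through the wells without Cdkn1a, which largely set its direction.

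**Figure D3:**
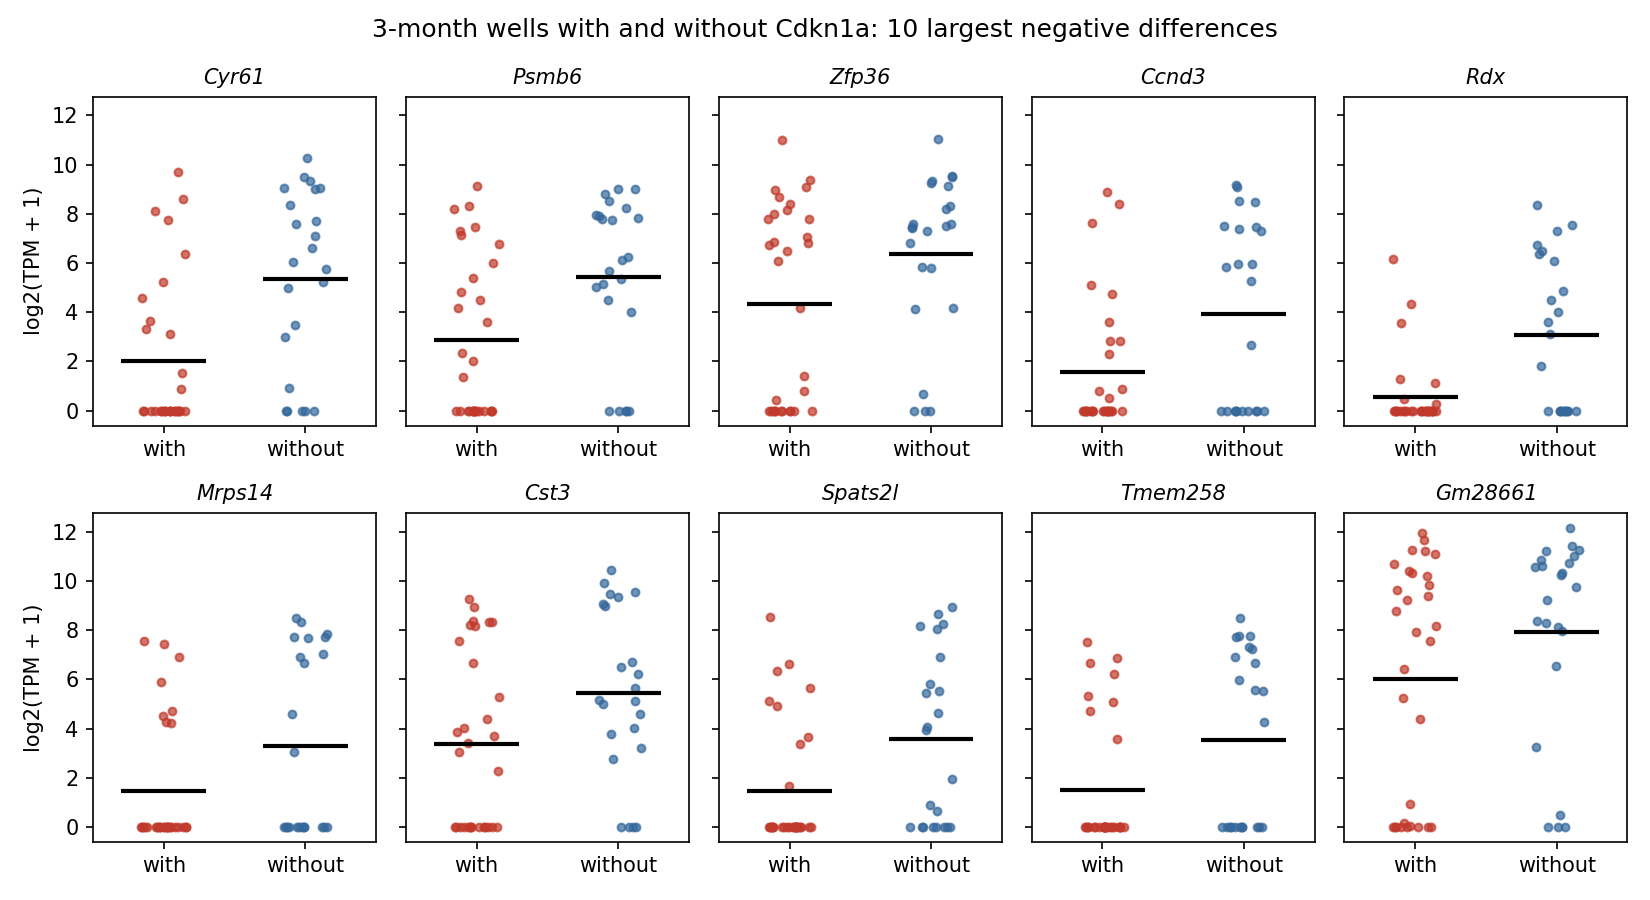
The 10 largest negative differences among genes found in at least 25% of kept wells. Axes and colours are as for the positive ones: log2(TPM + 1), wells with Cdkn1a on the left (red, 31), wells without it on the right (blue, 23), bars for group means. Cyr61 and Rdx are at 0 in most wells with Cdkn1a, and the ranges overlap in all 10 panels.

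For most of the higher genes, wells with more Cdkn1a did not differ more. The 39 genes were chosen with the 9 wells of 1 to 10 TPM inside the group with Cdkn1a, so the direction of their means there, higher than in the 23 wells without Cdkn1a for all 19 higher genes and lower for all 20 lower genes, was largely set by that choice. Wells at 10 TPM or more lay beyond the low wells for 5 of the 19 higher genes and 12 of the 20 lower genes. Mean log2(TPM + 1) of Akap2, for example, was 1.75 without Cdkn1a, 6.57 at 1 to 10 TPM and 3.81 at 10 TPM or more. Errfi1 was among those with an ordered series, at 3.83, 5.23 and 6.37, and so was Rdx, at 3.08, 1.17 and 0.31. Setting the threshold at 10 TPM, which moves the 9 low wells to the other group, put 29 genes past the fold. Of the 39 genes, 8 were past it there, 3 of the 19 higher and 5 of the 20 lower: Ackr3, Errfi1 and Cdc42 were higher, and Cyr61, Psmb6, Rdx, Mrps14 and Cst3 lower. Among the genes no longer past it, Akap2 differed by 0.41, Chp1 by 0.50, Sgk1 by 0.75, Tnfrsf12a by 1.11 and Ccnd3 by -1.15.

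**Figure D4:**
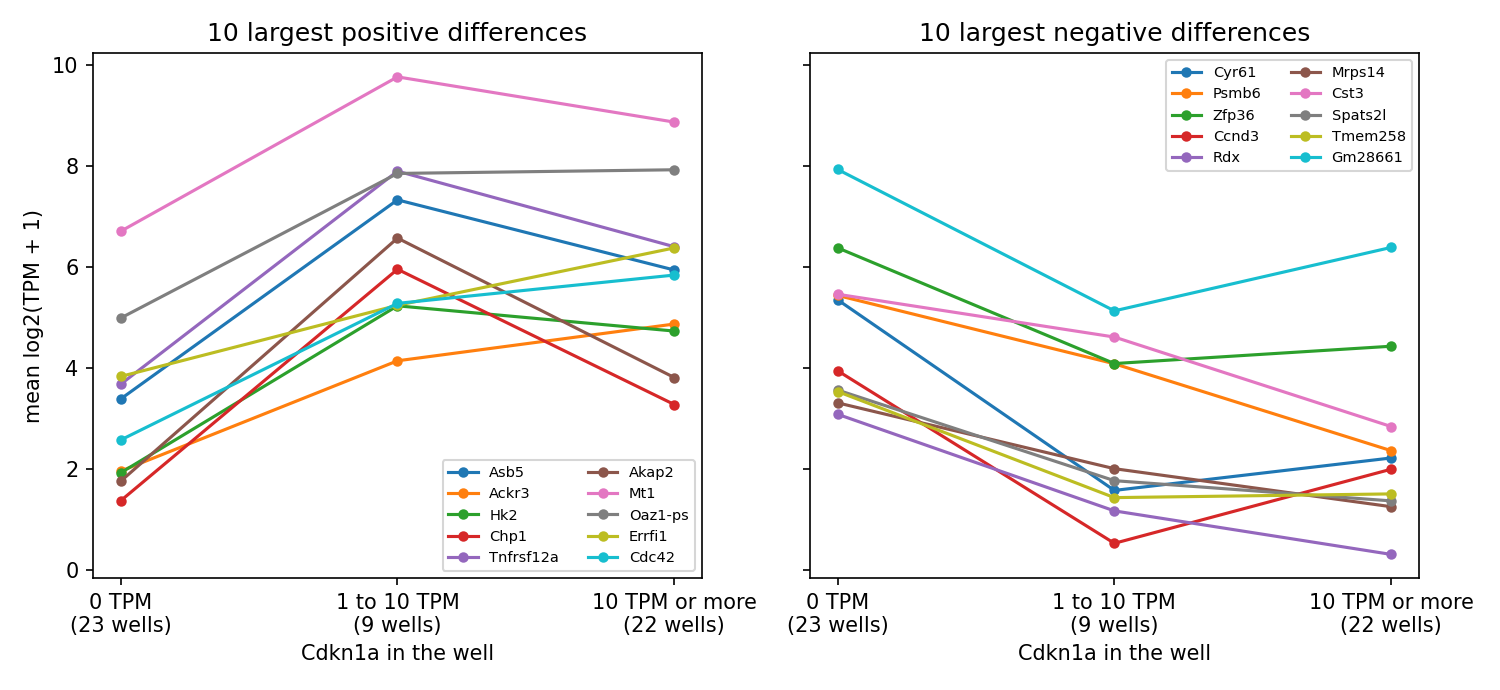
Mean log2(TPM + 1) of the 10 genes with the largest positive (left) and negative (right) differences, in wells with Cdkn1a at 0 (23 wells), at 1 to 10 TPM (9 wells) and at 10 TPM or more (22 wells). Each line is 1 gene. The step between 0 and the low wells follows from how the genes were chosen, and between the low and the high wells lines run both ways.

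Around p21, no other gene of the p53 list and 1 cyclin of the cell cycle lists passed the fold. Of 30 p53 targets, Cdkn1a aside, 29 were in the files and 9 were found in enough wells to be kept, of which 0 passed the fold. At the 0.731% over all genes a count of 0 is near the background for lists of this size, here and for the lists below, and says nothing about a list. Their median difference was 0.43, against 0.04 over all 5334 genes, and -0.08 with the index numbers in the fit. Mdm2, the ubiquitin ligase that p53 induces against itself, was found in 6 of 31 wells with Cdkn1a and 9 of 23 without it, for a difference of -1.41 (-0.65 with the index numbers). The p53 target kinase Plk2 (0.86) and the death receptor Fas (0.82) were higher by less than the fold. Fas was found in 22.6% of wells with and 8.70% without Cdkn1a, so it reached the filter through the wells with Cdkn1a. Rps27l, of the same list, was lower by less than the fold (-0.99). Ccng1, another p53 target, was found in 1 well, which held Cdkn1a. Trp53 was found in 14 of 31 wells with and 4 of 23 without Cdkn1a (difference 0.60, but -0.70 among the 14 wells with and 8 without Cdkn1a that held at least 2000 detected genes). In those wells 19 of 106 named genes that were not past the fold had the other sign and 24 were past it.

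Of the list of 13 CDK inhibitors and pocket proteins, 4 were kept: Cdkn1b, Cdkn2c (0.81), Cdkn2d (0.08) and Trp53, which the list also holds. Of these 4, 0 passed the fold (0.731% over all genes), with a median of 0.35. Cdkn2c was found in 19.4% of wells with and 8.70% without Cdkn1a, so it too reached the filter through the wells with Cdkn1a. The pocket protein genes Rb1, Rbl1 and Rbl2 were found in too few wells to be kept. Cdkn1b, which encodes p27, was found in 12 of 31 wells with Cdkn1a and 10 of 23 without it (difference 0.09). Cdkn1c, which encodes p57, was found in 2 wells with Cdkn1a and 0 without, and Cdkn2a and Cdkn2b, which mark senescent cells, in no kept well. Of 20 CDKs, cyclins and other partners of p21, 8 were kept, and Ccnd3 alone passed the fold, against 0.731% over all genes (median -0.17). Pcna, the clamp that p21 binds, was found in 16 of 31 wells with and 4 of 23 without Cdkn1a (difference 1.22, but -0.72 among wells with at least 2000 genes). Cdk4 differed by 0.26 and Ccnd1 by -0.23. Of the replication and mitosis list, 3 of 22 genes were kept and 5 were found in no kept well. The list was above 0 in 14 of 31 wells with and 14 of 23 without Cdkn1a, and summed to a median of 0 TPM (at most 2024) in wells with and 12.2 TPM (at most 1037) in wells without it. Mki67, a marker of cycling cells, was found in 2 wells, both with Cdkn1a.

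Stress and signalling lists differed little at their medians, and the members at their ends lay on both sides. Of 16 kept genes of oxidative stress defence (median 0.34), Mt1 alone passed the fold, against 0.731% over all genes. Nfe2l2, the NRF2 factor that drives this programme, was found in 18 of 31 wells with and 5 of 23 without Cdkn1a (difference 1.72), whereas the glutathione peroxidase Gpx1 was lower (-1.73). The integrated stress and unfolded protein response had the highest median of the lists with at least 3 kept genes, 0.58 over 12 genes with 0 past the fold, led by Ppp1r15b (1.55), which restores translation, and the chaperone Dnajb9 (1.48). This median was -0.05 with the index numbers in the fit. Of 29 kept immediate early and dissociation genes, 0 were higher and Fos and Zfp36 lower past the fold (0.356% and 0.375% over all genes). Their median of 0.04 was equal to that of all genes. Fosl1, another AP-1 subunit, was found in 8 of 31 wells with Cdkn1a and 0 of 23 without (difference 1.42). A count of 0 allows, as 3 of the 23 wells, a share of up to 13.0%. Because Fosl1 was kept only through the wells with Cdkn1a, its direction was largely set by the filter. Its difference is therefore not weighed against those of Fos and Zfp36.

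For IL6 and JAK-STAT genes, 1 of 13 passed the fold, Pim1 (0.731% over all genes), and the median was -0.09. Stat3, the main transducer of IL6, stood at 1.48 and its feedback inhibitor Socs3 stood at -1.64 (0.02 among wells with at least 2000 detected genes). The NF-kappaB list (median 0.23) held Nfkb1 as its only member past the fold of 9 kept, against 0.731% over all genes. Rela, the p65 subunit, stood at 1.13 and Birc3 at -1.63. All 6 kept genes of the senescence-associated secreted list of 20 lay below 0, with a median of -0.63 and none past the fold, among them Igfbp5 (-0.95) and Igfbp4 (-0.63). Igfbp4 was found in 9.68% of wells with and 26.1% without Cdkn1a. It therefore reached the filter through the wells without Cdkn1a, which largely set its direction. The count covers kept members only. Over all genes, 53.2% lay above 0. Summed over the whole list of 20, the median was 114.66 TPM (0 to 1788) with Cdkn1a and 112.11 TPM (0 to 1121) without it. TGF-beta and BMP genes had a median of -0.24 over 17 genes, FoxO genes -0.08 over 11, apoptosis regulators -0.03 over 7, DNA damage response genes -0.02 over 4 and heat shock genes 0.24 over 17, and none of these members passed the fold.

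Housekeeping sets lay close to the median of all genes. Of 60 genes of the cytosolic ribosomal protein list, 44 lay above 0, with a median of 0.15 and 0 past the fold. That list also holds Eef1a1, Tpt1 and Eef2, of which Eef2 was its highest member (1.13). For 30 nuclear genes of the respiratory chain the median was 0.10, with Cox7c at 1.98 and Ndufa4 at -1.79, and for 12 mitochondrially encoded genes -0.06. Glycolysis had a median of -0.21 over 15 genes, 6 above 0 and 9 below. Hk2 at 2.75 and Gpi1 at 1.17 stood against Eno1 at -1.60 and Aldoa at -1.22, all enzymes of the same path. With the Cdkn1a threshold at 10 TPM, Hk2 differed by 1.69, Eno1 by -0.58 and Aldoa by -0.05. The 26 proteasome genes had a median of 0.12, and 9 nuclear and long noncoding RNAs -0.06, with Meg3 at 1.52.

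**Figure D5:**
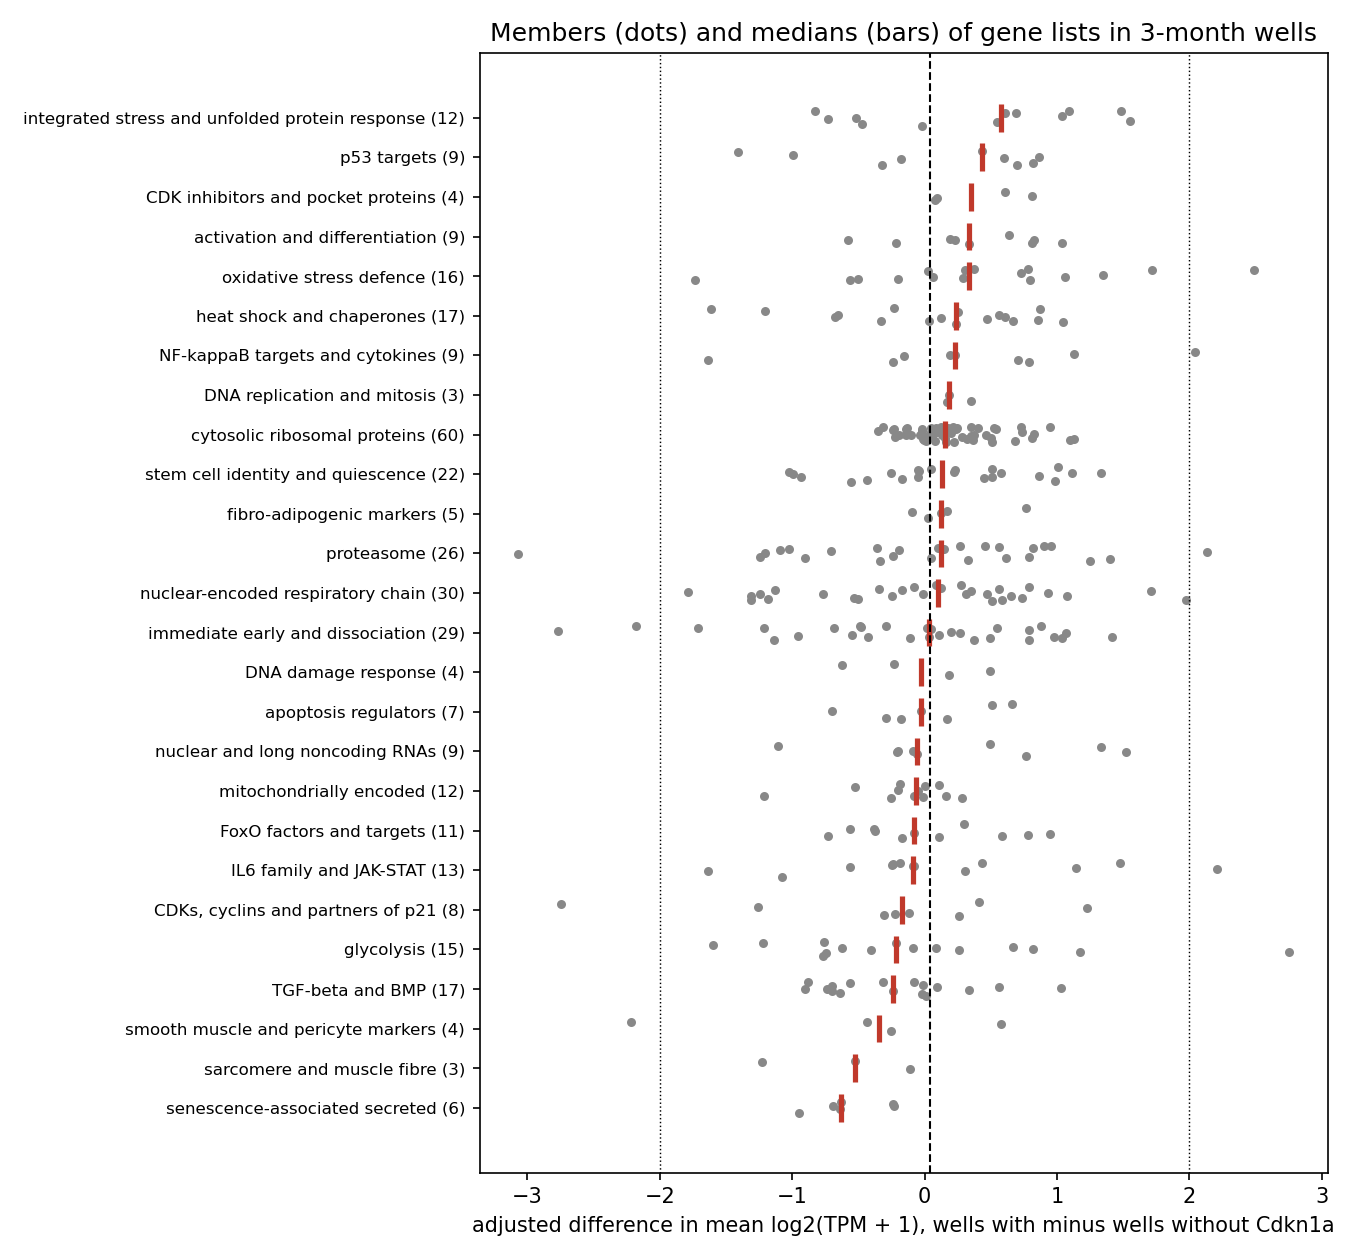
Adjusted difference in mean log2(TPM + 1), wells with minus wells without Cdkn1a, for each list with at least 3 kept genes. Grey dots are member genes, red bars list medians, numbers in brackets the kept members, the dashed line the median of all 5334 genes (0.04) and the dotted lines the fold of 2 log2 units. List medians lie between -0.63 and 0.58, and single members reach past the fold on both sides.

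Of 22 kept genes of stem cell identity and quiescence, 0 passed the fold (0.731% over all genes), with a median of 0.13. The largest differences were 1.34 for Sdc4 and -1.03 for Spry1, an inhibitor of receptor tyrosine kinase signalling that keeps satellite cells quiescent. Pax7 differed by 0.45, Calcr by 0.86, Myf5 by 0.19 and Cd34 by -0.04. Among wells with at least 2000 detected genes these differences were 2.44 for Pax7, 1.29 for Calcr, -1.42 for Myf5 and -1.26 for Cd34, so that Pax7 was past the fold there. Among 9 kept genes of activation and differentiation the median was 0.34 with 0 past the fold. Myod1, the factor that marks activated satellite cells, was found in 10 of 31 wells with Cdkn1a (32.3%, 16.7 to 51.4) and 6 of 23 without it (26.1%, 10.2 to 48.4), and Myog, the marker of their differentiation, in no kept well. Cd47, the gene named in the title of the study, was found in 51.6% of wells with Cdkn1a (33.1 to 69.8) and 52.2% without it (30.6 to 73.2), a difference of -0.07 that was -2.15, past the fold, among wells with at least 2000 detected genes.

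Markers of other cell types differed in how often they were found. The macrophage, lymphocyte, tenocyte and red blood cell lists had no kept gene, and 10 of 12, 7 of 10, 6 of 8 and 5 of 6 of their members were found in no kept well, in that order. Of 12 endothelial markers, 8 were found in no kept well and only Tek (0.31) was kept. Pecam1 was found in 2 wells, both with Cdkn1a. Of the fibro-adipogenic list, 5 of 15 genes were kept with a median of 0.12, and 5 were found in no kept well. Pdgfra, Ly6a, Pi16 and Clec3b reached 1 TPM in no kept well of either group. The list was above 0 in all 31 wells with and all 23 wells without Cdkn1a, Serping1, an inhibitor of complement C1, was found in 93.5% of wells with and 95.7% without it, and the list summed to a median of 656 TPM with Cdkn1a (11.6 to 1578) and 540 TPM without (30.4 to 1537). Of 12 Schwann cell markers, 7 were found in no kept well and only Pmp22 (-0.95) was kept. That list was above 0 in 18 wells with and 14 without Cdkn1a, at a median of 4.73 TPM (0 to 892) in wells with and 2.99 TPM (0 to 984) in wells without it. Smooth muscle and pericyte genes summed to a median of 76.7 TPM (0 to 2595) in wells with Cdkn1a and 54.9 TPM (0 to 7222) in wells without it. Sarcomere genes summed to 1.60 TPM (0 to 1264) with Cdkn1a and 7.08 TPM (0 to 619) without it. Their part in the differences above was not tested beyond leaving out the well without stem cell markers.

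Likeness over wells was measured against the same Cdkn1a values that chose the groups, so it is a description only. After removal of the trend on detected genes from both, Spearman's correlation with Cdkn1a over the 54 wells was 0.48 for Arpc2, a subunit of the actin-nucleating Arp2/3 complex, 0.45 for Impact, 0.44 for Oaz2, an antizyme of polyamine synthesis, 0.42 for Ogdh, an enzyme of the citric acid cycle, and 0.41 for Puf60, a splicing factor. These wells share 1 mouse and spike-in dominated libraries, and values of 0 make up much of each ranking. Arpc2 was found in 13 of 31 wells with Cdkn1a and 1 of 23 without it, and differed by 1.44, so that it reached the filter of 25% of wells through the wells with Cdkn1a.

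The bulk libraries, made from separate mice, were not used in the choice of wells. By age, Cdkn1a stood there at 48.4, 17.9 and 39.8 TPM in 3mo, at 41.2 and 269 TPM in 12 to 13mo, and at 136.5, 137 and 104 TPM in 24mo libraries. Every 24mo library was above every 3mo library, and the 12 to 13mo libraries lay on both sides. The log2 difference of 24mo minus 3mo was 1.90 ± 0.63 (SE, n = 3 each) with an adjusted p of 0.73 in limma (unadjusted p = 0.012), so it did not pass the threshold. In bulk RNA, fewer cells with a transcript and less of it per cell cannot be told apart. No gene passed an adjusted p of 0.05 in this comparison (0.0% of 22492), and 1325 had an unadjusted p under 0.05 (5.89%).

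The 39 genes past the fold were then set beside their difference with age in bulk. Of the 19 higher genes, 12 were higher in 24mo than in 3mo libraries (median log2 difference 0.50), and 4 had an unadjusted p under 0.05. Of the 20 lower genes, 13 were lower in 24mo libraries (median -0.21), and 5 had an unadjusted p under 0.05. Over the 5143 genes tested in both formats, 54.8% were higher in 24mo libraries, with a median of 0.07. Of all 22492 genes tested in bulk, 5.89% had an unadjusted limma p under 0.05. The counts of 4 and 5 are not split by direction, so they do not show that these genes changed with age as in the wells. Hk2 was 10.01, 12.8 and 10.9 TPM at 24mo and 0, 0 and 12.4 TPM at 3mo, so that the groups overlapped. Pim1 was 40.97, 10.6 and 23.04 TPM at 24mo, against 5.67, 11.9 and 0 TPM at 3mo, again with overlap. Errfi1, higher in young wells with Cdkn1a, was lower with age: 328, 240 and 200 TPM at 24mo, against 631, 500.7 and 427 TPM at 3mo, without overlap (log2 difference -1.03, limma adjusted p = 0.73). Ccnd3, lower in wells with Cdkn1a, was 34.3, 34.5 and 35.8 TPM at 24mo and 102, 72.8 and 41.8 TPM at 3mo, also without overlap (-0.94, limma adjusted p = 0.83). None of these age differences passed the adjusted threshold.

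Of 31 wells of the 24mo mouse, 7 passed the same filter, with 1041 to 2950 detected genes. Cdkn1a was found in 1 of them (14.3%, exact 95% interval 0.361 to 57.9), at 175 TPM in the well with the most genes (2950, against at most 2587 in the other 6), and in 1 of the 24 wells left out. A comparison of this 1 well with the other 6 put 3229 of 6182 genes past the fold (52.2%), 1515 higher and 1714 lower, and rests on that single well. In both mice, 225 of 4065 genes differed by 1 log2 unit or more in the same direction (5.54% of genes tested in both), 122 higher and 103 lower, while 229 did so in opposite directions. The shared direction is therefore no more frequent than the opposite one, and the genes that follow are given as values only. By the size of the smaller difference, the highest in wells with Cdkn1a were Tubb6 (2.34 in the young and 2.42 in the old mouse), Sgk1 (2.33 and 7.50), Cox7c, a subunit of cytochrome c oxidase (1.98 and 5.46), Mdh1, cytosolic malate dehydrogenase (1.95 and 8.91), and Gm12338 (1.85 and 5.76). The lowest were Spats2l (-2.49 and -6.30), Gm28661 (-2.26 and -2.62), Gm20659 (-2.11 and -2.02), Gm4459 (-2.10 and -8.31) and D8Ertd738e (-2.0 and -5.63). Mt1 and Errfi1, both higher in young wells with Cdkn1a, differed by -9.21 and -7.56 in the old wells.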

How the data were processed

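Muscle stem cells were profiled in wells of single cells and in bulk libraries, aligned with STAR to mm10 per the submitters' processing notes. The version, strandedness, read depth and annotation used are not stated in the sources at hand, and a library method for the wells is not stated apart from that of the bulk RNA. The values deposited by the authors are TPM, per the labels, and totals of wells ran from 999781 to 1000000.2 with 92 spike-in RNAs included. Of 45797 entries, 43282 carried an Ensembl ID (42781 matched a symbol table), and 2423 without one were left out. The 3mo wells with at least 1000 genes at 1 TPM were split by Cdkn1a at 1 TPM. Differences in mean log2(TPM + 1), wells with minus wells without Cdkn1a, came from least squares with the number of detected genes as a term, in Python 3.11.15 with numpy 2.4.6, for genes found in at least 10% of wells. Such a scale understates the change of low genes. A difference of 2 log2 units or more was called past the fold. No test was run over wells of 1 mouse. Shares have exact 95% Clopper-Pearson intervals (scipy 1.17.1), which cover counting error between wells only, and for a count of 0 the limit is 3 counts of the wells.

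Bulk log2(TPM + 1) values of all 8 libraries were fitted with limma 3.58.1 in R 4.3.3 (mean TPM of at least 1, variance trend, two-sided, Benjamini-Hochberg, threshold 0.05, no replicate block). Both scripts were tested on simulated data with normal noise. The simulated wells did not copy the zeros of missed transcripts. Their test therefore shows only that the fit returns a known shift, not how it behaves with many zeros. Genes were named by rule: 16 fixed genes, the 10 largest differences in each direction among genes in at least 25% of wells, up to 4 per list, 5 in each direction shared with the 24mo wells and the 5 most correlated with Cdkn1a. Capza2, Gm13092, Actg-ps1, Gm12715, Tmem176b, Wbp5, Gt(ROSA)26Sor, Med28 and Dpysl2 were named because they passed the fold, and these and Cdkn2a, Cdkn2b and Pecam1 were added after their values were seen. The members and the 32 gene lists were chosen with earlier results of these data known. Alternatives covered pseudocounts, thresholds, filters, covariates, scaling and the leaving out of wells by number of the first index. Those on spike-in share, on wells of 1 to 10 TPM Cdkn1a and on wells with a stem cell marker were chosen after seeing the data.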

Additional observations from a re-analysis of the deposited data

How the results depend on the processing

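Of 39 genes past the fold in young wells, all kept their sign in every alternative where they could be computed, except D8Ertd738e, which was 0.64 with at least 2000 detected genes (14 wells with and 8 without Cdkn1a); the cause was not tested. The count depended on the settings. It was 270 at a pseudocount of 0.1 and 2 at 10, 476 with at least 2000 detected genes, 66 with no covariate (57 higher, 9 lower), 74 with index numbers in the fit (with 14 of the 19 higher and 15 of the 20 lower genes), 126 with TPM over nuclear genes, 184 at a fold of 1.5 and 2 at a fold of 3 log2 units, and 61 without wells of 1 to 10 TPM Cdkn1a. Leaving out the wells of each of the 8 numbers of the first index in turn gave 41, 61, 65, 84, 70, 56, 59 and 55 genes, in index order. With the spike-in share in the fit it was 46, of which 12 of the 19 higher and 18 of the 20 lower genes. Of 28 list medians, 3 kept 1 sign in every alternative: the NF-kappaB and ribosomal protein lists above 0 and the senescence-associated secreted list below 0. At a threshold of 10 TPM, Cdkn1a was found in 40.7% of wells (27.6 to 54.97). Among 24mo wells, 3229 genes became 1537 at a pseudocount of 10, 1164 with at least 500 detected genes and 1633 for genes in 25% of wells. Shared by both mice, 225 became 517 at a pseudocount of 0.1, 21 at 10, 362 with no covariate, 372 over nuclear genes and 140 for genes in 25% of wells. With at least 2000 genes, or in the shared range of detected genes, the 24mo wells could not be fitted. In bulk, 0 genes were called by limma in every setting, including the replicate block (0, with 1201 at an unadjusted p under 0.05) and each library left out (0 to 0, with 997 to 1528); same-numbered libraries correlated at -0.0121 to 0.0049, so the numbers do not pair them. Wells come from 1 mouse, most transcripts are missing from many wells, and depth is unknown, so a difference may rest on few wells.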
